A study of Homo sapiens with 23 samples.

Results

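Peaks of histone H4 acetylated at lysine 5 (H4K5ac) and of histone H4 acetylated at lysine 8 (H4K8ac) were compared with each other, to find where each mark was called without the other and what else was called at those places. The material was every peak in the 4 lists of these marks, 2 replicate lists per mark. They held 585542 of the 2889028 peaks in the 22 lists of the series. A peak is a stretch of the genome with more sequenced fragments than its surroundings after immunoprecipitation. Throughout, an H4K5ac-only peak is an H4K5ac peak that shares no base with any H4K8ac peak of the list it was set against, and an H4K8ac-only peak is the reverse. The remaining peaks are called shared. A mark that was not called at a place is not shown to be absent there.

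The cells were NCI-H23, a long-established line from a non-small cell lung cancer, and the assay was chromatin immunoprecipitation followed by sequencing. The series holds 23 samples, of which 22 are immunoprecipitates for 11 targets and 1 is an input sample, not analysed here. H4K5ac and H4K8ac were each precipitated with a rabbit polyclonal antibody from Millipore, and both replicates of a mark used the same antibody lot. The other targets were used to describe the places: H3K4me3 and H3K27ac (mouse monoclonal antibodies), H3K4me1, H3K36me3, H3K9me3, H3K27me3, H4K12ac and BRD2 (rabbit polyclonal), and H4K5acK8ac. The last is the tail acetylated at both lysines, precipitated with a mouse monoclonal antibody made by the submitters. The treatment protocol names the BET inhibitor JQ1 at 500 nM, or its solvent DMSO, for 24 h. No label says which library received which, so all libraries were taken as labelled, by target and replicate number. Nothing says that replicates were separate cultures, and the spread between them may be technical.

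As background, lysines 5 and 8 lie close together on the tail of histone H4 and are acetylated by histone acetyltransferases at active promoters and enhancers. The BET proteins, BRD2 among them, bind acetylated H4 tails through their bromodomains, and a tail acetylated at both lysines is a preferred ligand of their first bromodomain. H3K4me3 marks active promoters, H3K4me1 with H3K27ac marks active enhancers, and H3K36me3 lies over transcribed gene bodies. H3K9me3 marks heterochromatin, and H3K27me3 marks genes silenced by Polycomb complexes. A list from a single-mark antibody does not tell whether the neighbouring lysine of the same tail was acetylated.

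The replicates of H4K5ac were alike and those of H4K8ac were not. H4K5ac replicate 1 had 125816 peaks with a median width of 330 bp, covering 72.4 Mb. H4K5ac replicate 2 had 118148 peaks with a median of 353 bp, covering 72.6 Mb. H4K8ac replicate 1 had 224726 peaks with a median of 316 bp, covering 95.7 Mb. H4K8ac replicate 2 had 116852 peaks with a median of 267 bp, covering 39.6 Mb, so that the shorter H4K8ac list held about as many peaks as an H4K5ac list but on fewer bases. Its peaks were also the least significant, though not the lowest in enrichment: the median fold was 3.19, against 2.99 in H4K8ac replicate 1 and 3.29 and 3.27 in the H4K5ac lists. Peaks with a −log10 q of at least 5, called strong here, made up 5.85% of H4K8ac replicate 2, against 16.6% of H4K8ac replicate 1 and 30.6% and 33.4% of the H4K5ac lists. Peaks with a q above 0.05 made up 23.4% of H4K8ac replicate 2 and between 5.44% and 5.93% of the other lists. The main comparisons below are therefore given by library pair or with their range over the pairs. The read depth behind the lists is unknown.

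H4K5ac peaks were wider than H4K8ac peaks in every pair of libraries, and the difference lay mostly in the wide tail. The ratio of median widths, H4K8ac over H4K5ac, was 0.854. Without H4K8ac replicate 2 it was 0.925, and without H4K8ac replicate 1 it was 0.782. Peaks over 1000 bp made up 13.3% and 14.6% of the H4K5ac lists, against 5.08% and 1.89% of the H4K8ac lists. The longest H4K5ac peaks were 28791 and 39990 bp and the longest H4K8ac peaks 8577 and 9668 bp. The strongest fold enrichments, ratios to the local background as the authors' peak caller gave them, were 37.3 and 37.8 for H4K5ac and 22.2 and 14.3 for H4K8ac. The ratio of median widths was 0.457 when only the 10000 strongest peaks per list were used.

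A large share of each mark's peaks was called without the other, and which mark had the larger share depended on the H4K8ac library. H4K5ac replicate 1 had 56835 peaks without H4K8ac replicate 1 (45.2%, Wilson 95% interval 44.9% to 45.4%) and 82464 without H4K8ac replicate 2 (65.5%). H4K5ac replicate 2 had 50642 (42.9%) and 75343 (63.8%) in the same order. In the other direction, H4K8ac replicate 1 had 146283 peaks without H4K5ac replicate 1 (65.1%) and 146479 without H4K5ac replicate 2 (65.2%). H4K8ac replicate 2 had 61117 (52.3%) and 60822 (52.1%). Wilson intervals cover counting error only and are narrower than the spread between H4K8ac libraries. The mean H4K5ac-only share was 54.3%, with an SD of 1.44 percentage points between H4K5ac libraries and 14.6 between H4K8ac libraries. The mean H4K8ac-only share was 58.7%, with SDs of 0.0584 and 9.16. With the longer H4K8ac list, H4K8ac had the larger share, and with the shorter one H4K5ac did. With every list limited to its strongest 116852 peaks, H4K5ac had the larger share in each of the 4 pairs, with means of 60.2% against 52.6%. With only the 10000 strongest per list, the means were 41.4% (34.2% to 48.5%) and 30.5% (26.3% to 34.6%). Among strong peaks set against all peaks of the other mark, H4K5ac had 18.3% and 18.7% without H4K8ac replicate 1 and 38.4% and 38.3% without replicate 2. Strong peaks of H4K8ac replicate 1 had 22.1% and 21.9% without H4K5ac, and those of replicate 2 had 3.11% and 3.19%. Which mark has more peaks of its own is therefore not settled by these lists. Lists of the same mark also missed each other's peaks. Of H4K8ac replicate 1 peaks, 13.7% of those without H4K5ac replicate 1 and 51.4% of those with it overlapped H4K8ac replicate 2. Of H4K5ac replicate 1 peaks, 41.6% of those without H4K8ac replicate 1 and 73.8% of those with it overlapped H4K5ac replicate 2. A share without the other mark therefore includes peaks that the same mark's other list also lacked. No p-value is given, because an exact two-sided permutation test of 2 libraries against 2 cannot go below 0.333.

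**Figure D1:**
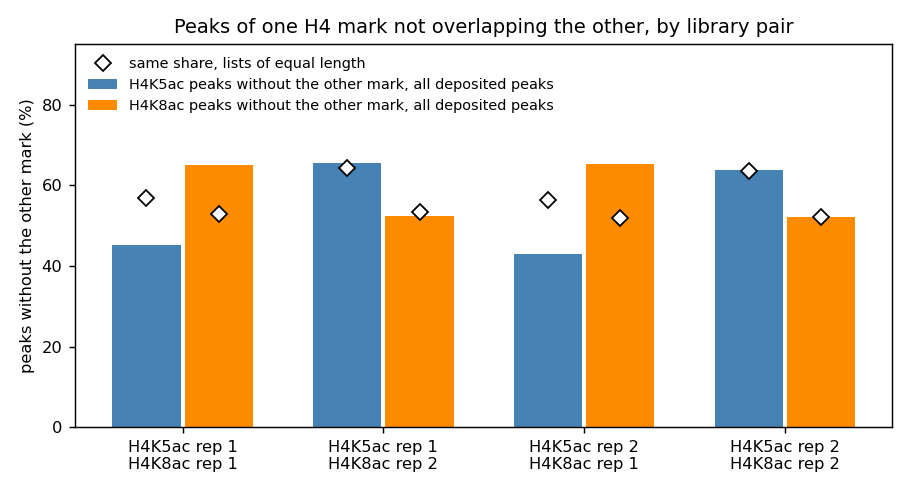
Percent of peaks without the other mark (y axis) for the 4 pairs of an H4K5ac and an H4K8ac library (x axis). Bars use all deposited peaks, blue for H4K5ac and orange for H4K8ac, and diamonds use lists of equal length (116852 peaks). Bars change order with the H4K8ac library, from 45.2% against 65.1% in the first pair to 65.5% against 52.3% in the second, while the H4K5ac diamond is the higher one in all 4 pairs.

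Peaks of a single mark were narrower, weaker and less often found again than shared peaks. H4K5ac-only peaks had median widths of 263 to 296 bp over the 4 pairs, against 469 to 647 bp for shared H4K5ac peaks. H4K8ac-only peaks had medians of 239 to 282 bp, against 325 to 444 bp for shared H4K8ac peaks. Of H4K5ac-only peaks, between 41.6% and 50.1% overlapped a peak in the other H4K5ac replicate, against 73.8% to 81.5% of shared peaks. Of the H4K8ac-only peaks of replicate 1, 13.7% and 13.5% overlapped a peak of H4K8ac replicate 2, against 51.4% and 51.9% of its shared peaks. In replicate 2 these shares were 35.4% and 35.1%, against 79.9% and 80.1%. The lower figures of replicate 1 come with a search in a list covering fewer bases. The other mark was seldom far away. The median distance from an H4K5ac-only peak to the nearest H4K8ac peak was 1185 to 2252 bp, and from an H4K8ac-only peak to the nearest H4K5ac peak 3782 to 4593 bp. Between 32.5% and 46.0% of H4K5ac-only peaks had an H4K8ac peak within 1000 bp, and between 20.03% and 23.8% of H4K8ac-only peaks an H4K5ac peak.

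The share without the other mark fell as peaks became stronger, for both marks and in all 4 pairs up to a −log10 q of 20. Among H4K5ac peaks with a −log10 q under 1.3, between 61.5% and 83.4% lacked H4K8ac, and among H4K8ac peaks of that strength between 68.3% and 83.3% lacked H4K5ac. At a −log10 q from 5 to 10, 33.3% and 33.9% of H4K5ac peaks lacked H4K8ac replicate 1, and 57.9% and 57.3% lacked H4K8ac replicate 2. In the same range 30.9% and 30.7% of the H4K8ac replicate 1 peaks lacked H4K5ac, but only 3.66% and 3.70% of those of replicate 2. From 20 upward, 112 of 11210 peaks of H4K5ac replicate 1 lacked H4K8ac replicate 1 (1.00%, Wilson 95% interval 0.831% to 1.20%), and 1041 (9.29%) lacked H4K8ac replicate 2. Of 3740 H4K8ac replicate 1 peaks of that strength, 0 lacked H4K5ac replicate 1, with an upper Wilson bound of 0.103%, and 1 lacked H4K5ac replicate 2. Of 67 such peaks in H4K8ac replicate 2, 1 lacked H4K5ac. Very strong H4K8ac was therefore almost always called together with H4K5ac, whereas some very strong H4K5ac was called without H4K8ac, mostly where the less significant H4K8ac list was used.

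**Figure D2:**
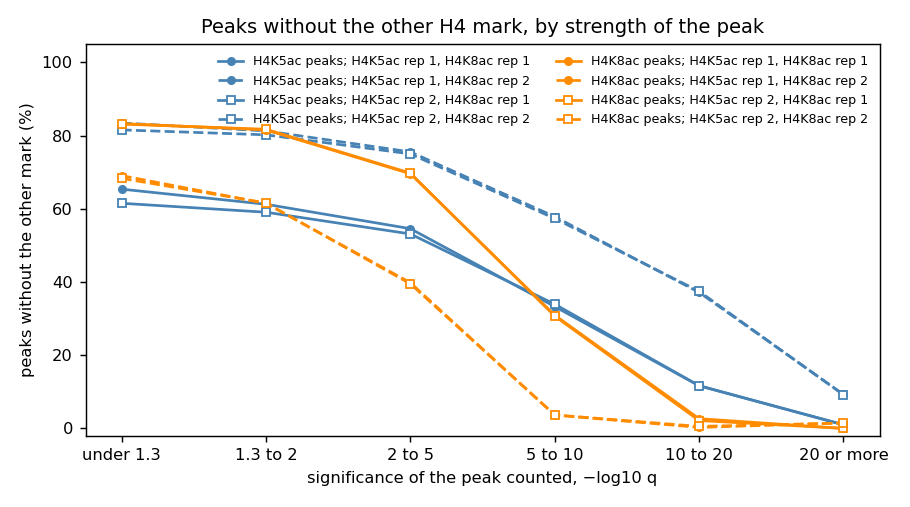
Percent of peaks without the other mark (y axis) by the −log10 q of the peak counted (x axis, 6 ranges). Each line is a library pair, blue for H4K5ac peaks and orange for H4K8ac peaks, with dashed lines for pairs with H4K8ac replicate 2 and open squares for H4K5ac replicate 2. All 8 lines start between 61.5% and 83.4%, and the last points lie between 0 and 9.29%.

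Against both lists of the other mark at once, 48349 peaks of H4K5ac replicate 1 (38.4%) and 42612 of replicate 2 (36.1%) were free of H4K8ac. In H4K8ac replicate 1, 129226 (57.5%) were free of H4K5ac, and in replicate 2, 52258 (44.7%). Strong peaks of this kind numbered 5118 and 5340 for H4K5ac, and of them 84.9% and 85.1% were found in the other H4K5ac replicate. For H4K8ac they numbered 6035 in replicate 1 and 142 in replicate 2, and 25.1% and 54.9% were found in the other H4K8ac replicate. Strong H4K5ac-only peaks were thus recalled between replicates more often than strong H4K8ac-only peaks in both libraries. The 25.1% comes from a search in H4K8ac replicate 2, a list covering fewer bases than the H4K5ac lists, and the 54.9% rests on 142 peaks.

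Places with a single H4 mark differed most in the active H3 marks. On H3K4me3, the promoter mark, H4K5ac-only peaks of replicate 1 lay in 14.3% of cases when set against H4K8ac replicate 1 and 19.6% against replicate 2. Those of H4K5ac replicate 2 did so in 14.6% and 20.2%. H4K8ac-only peaks did so in 1.13% and 1.18% in replicate 1 and in 0.545% and 0.584% in replicate 2, so that the 4 pairs of the marks were widely apart. The difference, H4K8ac-only minus H4K5ac-only, was −16.3 percentage points, with an SD of 0.281 between H4K5ac libraries and 4.31 between H4K8ac libraries. Over all peaks, whether or not the other mark was there, 24.0% of H4K5ac and 13.7% of H4K8ac peaks lay on H3K4me3. Both single-mark classes were thus under their own mark's level, and H4K8ac-only peaks were far under it.

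The enhancer-type marks gave the same order with higher shares. On H3K4me1 the H4K5ac-only share was 49.8%, ranging from 48.9% to 51.1% over the pairs, and the H4K8ac-only share was 15.2%, ranging from 14.6% to 15.8%. The difference of −34.6 percentage points compares with SDs of 1.16 between H4K5ac and 1.22 between H4K8ac libraries. All H4K5ac peaks stood at 57.0% and all H4K8ac peaks at 34.5%. These ranges and SDs average the H3K4me1 lists, which differed more. On H3K4me1 replicate 1, H4K5ac-only shares were 39.4% to 41.5% and H4K8ac-only shares 9.77% to 10.7%. On H3K4me1 replicate 2 they were 58.2% to 60.7% and 19.4% to 20.9%. On H3K27ac the H4K5ac-only share was 46.6% (44.0% to 49.0%) and the H4K8ac-only share 11.8% (10.9% to 12.8%). The difference was −34.7 percentage points, with SDs of 1.07 and 3.83. All H4K5ac peaks stood at 55.3% and all H4K8ac peaks at 34.8%. On H3K27ac replicate 1, H4K5ac-only shares were 37.6% to 45.3% and H4K8ac-only shares 11.3% to 16.3%. On H3K27ac replicate 2 they were 50.4% to 52.8% and 9.29% to 10.6%. For H3K4me3, H3K4me1 and H3K27ac, every H4K5ac-only value was above every H4K8ac-only value.

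Shared peaks of the marks are largely the same places by definition, so their shares have to be close and are given for scale only. Shared H4K5ac and shared H4K8ac peaks lay on H3K4me3 in 31.5% and 33.3% of cases, on H3K4me1 in 66.6% and 65.1%, and on H3K27ac in 65.8% and 70.0%. The difference between single-mark peaks stood at −17.2, −35.2 and −35.3 percentage points for H3K4me3, H3K4me1 and H3K27ac with lists of equal length. Among strong peaks the difference between single-mark peaks was −42.2, −49.8 and −63.1, and shares over all strong peaks were not computed. By pair, the strong-peak difference on H3K27ac ranged from −67.6 to −58.5. On H3K4me3 it was −32.6 and −31.7 with H4K8ac replicate 1 and −53.2 and −51.4 with replicate 2.

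On H3K36me3, H3K9me3 and H3K27me3 the single-mark peaks of H4K5ac and H4K8ac did not differ beyond the spread between libraries. On H3K36me3, the gene-body mark, the H4K5ac-only share was 12.2% (11.7% to 12.7%), while the H4K8ac-only share was 15.5% in replicate 1 and 9.47% and 9.48% in replicate 2. The difference was 0.272 percentage points, with an SD of 3.76 between H4K8ac libraries, and its sign was set by the H4K8ac library: 2.93 without replicate 2 and −2.39 without replicate 1. All peaks of H4K5ac replicates 1 and 2 stood at 11.9% and 12.1%, and all H4K8ac peaks at 12.4%. On H3K9me3 the shares were 4.74% and 3.92%, a difference of −0.817 that was −2.21 without H4K8ac replicate 2 and 0.577 without replicate 1, with all peaks at 4.41% and 3.54%. On H3K27me3 they were 3.36% and 3.65%, a difference of 0.290 that was −0.304 without H4K8ac replicate 2 and 0.883 without replicate 1, with all peaks at 2.76% and 2.78%. Strong peaks gave differences of 2.27 on H3K9me3 and 3.57 on H3K27me3, and these means rest on the 213 and 218 strong H4K8ac-only peaks of replicate 2. In the pairs with that library the H3K9me3 difference was 8.01 and 8.40 percentage points and the H3K27me3 difference 6.56 and 7.15. In the pairs with H4K8ac replicate 1, with 8280 and 8175 such peaks, they were −3.83 and −3.48, and 0.301 and 0.262.

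**Figure D3:**
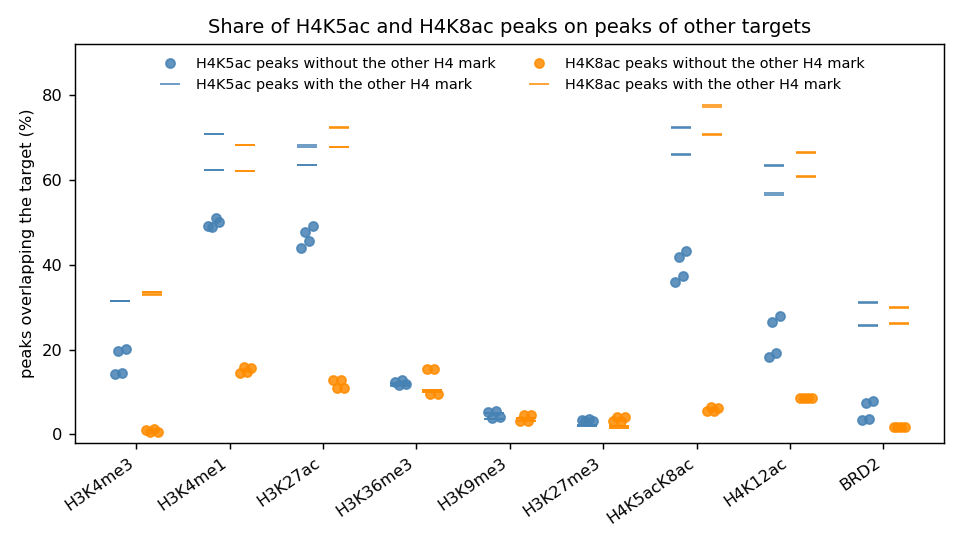
Percent of H4K5ac (blue) and H4K8ac (orange) peaks overlapping a peak of each target (x axis), as the mean over the target's lists. Dots are peaks without the other H4 mark, 1 per library pair, and dashes are peaks with it. Blue dots stand far above orange dots on H3K4me3 (means 17.2% and 0.860%), H3K4me1 (49.8% and 15.2%) and H3K27ac (46.6% and 11.8%), and the dots lie close together on H3K36me3, H3K9me3 and H3K27me3.

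The gap on active marks was present among peaks of like significance as well. At a −log10 q from 2 to 5, H4K5ac-only peaks lay on H3K4me3 in 13.9% of cases (13.1% to 14.6% over the pairs) and on H3K27ac in 44.5% (44.3% to 44.6%). H4K8ac-only peaks in that range did so in 0.811% (0.473% to 1.14%) and 12.6% (11.8% to 13.3%). Even under 1.3, the weakest range, the shares on H3K27ac were 28.2% and 10.3%. At 5 to 10 they were 77.4% and 18.2%, while on H3K4me3 they ranged from 30.1% to 42.4% for H4K5ac-only and from 0.957% to 1.57% for H4K8ac-only peaks. On H3K27ac the share was thus higher in stronger ranges for both marks, and it was lower for H4K8ac-only peaks in each. On H3K4me3, H4K8ac-only peaks were under 2% in every range up to a −log10 q of 10. At 10 to 20, where only the pairs with H4K8ac replicate 1 had enough H4K8ac-only peaks, H4K8ac-only shares were 8.50% on H3K4me3 and 28.8% on H3K27ac, against 48.8% to 75.2% and 88.6% to 95.4% over the 4 pairs for H4K5ac-only. A −log10 q depends on a library's depth, so equal values in different lists need not mean equal enrichment. Shares over all peaks of a range were not computed. Neither the rise with strength nor the gap within a range is therefore shown to be particular to single-mark peaks.

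Each peak was also put into the first class that applied, from H3K4me3 through H3K4me1 with H3K27ac, H3K27ac, H3K4me1, H3K36me3, and H3K9me3 or H3K27me3, to none of the 6. This was done with the replicate 1 lists of the H3 marks and again with the replicate 2 lists, and the results were averaged. Among H4K5ac-only peaks, 17.2% were promoter-type (H3K4me3), 25.7% had H3K4me1 with H3K27ac and no H3K4me3, and 31.8% had none of the 6 marks. Among H4K8ac-only peaks the same classes held 0.860%, 5.85% and 67.6%. H3K27ac or H3K4me1 alone accounted for 6.89% and 13.4% of H4K5ac-only peaks and for 5.56% and 8.71% of H4K8ac-only peaks. Peaks with H3K36me3 and none of the active marks made up 1.41% of H4K5ac-only peaks (1.28% to 1.55% over the pairs) and 5.83% of H4K8ac-only peaks (4.14% to 7.53%). Those with H3K9me3 or H3K27me3 and none of the marks before them made up 3.69% (3.22% to 4.15%) and 5.54% (4.69% to 6.40%). In these last 2 classes H4K8ac-only was higher in every pair, unlike in the plain overlaps with the same marks. The classes are shares of all single-mark peaks, and far more H4K8ac-only than H4K5ac-only peaks remained after the active classes. The order in these classes therefore does not compare the marks among peaks off active marks. Among H4K8ac-only peaks, the share with none of the 6 ranged only from 66.4% to 68.9% over the 4 pairs. It was thus nearly the same for the longer and the shorter H4K8ac list. Of shared peaks, 20.2% of H4K5ac and 17.01% of H4K8ac had none of the 6. Most H4K8ac-only peaks therefore lay at places where no H3 mark of the series was called, while most H4K5ac-only peaks lay on active H3 marks. For scale, the H3K4me3 lists covered 1.41% and 1.40% of the called span of the genome, the H3K27ac lists 3.31% and 3.71%, and the H3K36me3 lists 7.04% and 6.81%. The share of H4K8ac-only peaks on H3K4me3 was below the share of bases that H3K4me3 covers, and that on H3K27ac was above it. A peak spans many bases and meets a list more easily than a single base, so these shares are not expected values.

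**Figure D4:**
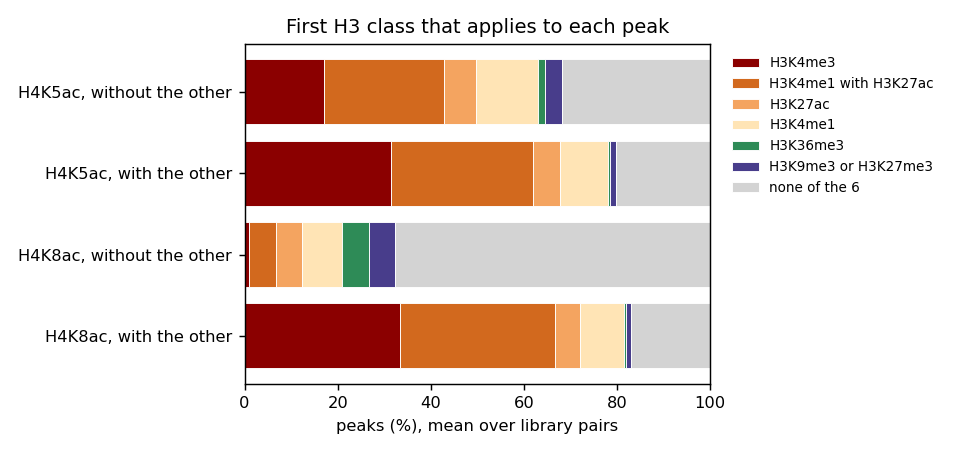
Mean percent of peaks (x axis, over library pairs) in 7 H3 classes, each peak counted in the first class that applies in the order of the legend. Each bar is a mark without or with the other mark. The grey part, none of the 6 H3 marks, is 67.6% for H4K8ac without H4K5ac against 31.8%, 20.2% and 17.01% in the other bars.

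The other acetylation readouts separated the single-mark classes in the same direction. On H4K5acK8ac peaks, the doubly acetylated tail, H4K5ac-only peaks lay in 39.6% of cases (35.96% to 43.2%) and H4K8ac-only peaks in 5.92% (5.43% to 6.43%). All peaks stood at 53.1% and 32.3%, and shared peaks at 69.2% and 74.0%. Many places called for H4K5ac and for the double mark thus had no H4K8ac peak. On H4K12ac, another lysine of the same tail, the shares were 22.98% and 8.57%, with all peaks at 40.0% and 30.0%. On BRD2 they were 5.57% (3.45% to 7.82%) and 1.76% (1.69% to 1.85%), with all peaks at 15.9% and 11.9% and shared peaks at 28.4% and 28.0%. BRD2 peaks were thus much rarer at single-mark peaks of either kind than at shared ones. The H4K5ac-only values on BRD2 depended on the H4K8ac library, at 3.45% and 3.598% against replicate 1 and 7.41% and 7.82% against replicate 2. The gap also depended on the BRD2 list. With H4K8ac replicate 1 and BRD2 replicate 1, the shares were 2.63% and 2.71% for H4K5ac-only against 2.31% and 2.32% for H4K8ac-only peaks. With BRD2 replicate 2 they were 4.26% and 4.48% against 1.08% and 1.07%. With H4K8ac replicate 2, BRD2 replicate 1 gave 5.66% and 5.96% against 2.32% and 2.38%. In BRD2 replicate 1, 64.7% of peaks had a q above 0.05.

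The same comparison was made on regions called in both replicates of a mark, in which peaks of the replicates that touch are joined. There were 63735 such regions for H4K5ac and 56915 for H4K8ac. Of the H4K5ac regions, 13537 (21.2%, Wilson 95% interval 20.9% to 21.6%) met neither H4K8ac list, 28902 (45.3%) met both, 17171 met replicate 1 alone and 4125 met replicate 2 alone. Of the H4K8ac regions, 13840 (24.3%, 24.0% to 24.7%) met neither H4K5ac list, 33895 (59.6%) met both, and 4467 and 4713 met a single one. The classes free of the other mark were thus of nearly equal number, and their shares were well under those of single-library peaks.

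These replicated single-mark regions differed on active chromatin by more than the single-library peaks did. On H3K4me3 in both of its lists lay 3517 H4K5ac-only regions (26.0%) and 33 H4K8ac-only regions (0.238%), with all regions of the marks at 36.4% and 24.3%. On H3K27ac the shares were 56.6% and 5.69%, with all regions at 66.6% and 48.4%. On H3K4me1 they were 56.7% and 8.34%, with all regions at 65.1% and 47.0%. On H4K5acK8ac they were 52.0% and 1.96%, with all regions at 70.2% and 52.1%. BRD2 was called in both lists at 234 H4K5ac-only regions (1.73%) and 15 H4K8ac-only regions (0.108%), with all regions at 20.1% and 18.8%. No list of any of the 6 H3 marks met 914 H4K5ac-only regions (6.75%) and 8599 H4K8ac-only regions (62.1%), with all regions at 7.22% and 25.6%. This last count uses both lists of every H3 mark, so its shares are lower than those of the single-list classes above. Even so, most H4K8ac-only regions met none of them. The H4K8ac-only regions were weak: the lower of the replicates' −log10 q values had a median of 1.51 and a maximum of 6.08, and it reached 5 in 5 regions. In the H4K5ac-only regions the median was 2.68 and the maximum 23.4, and it reached 5 in 1906. These H4K8ac-only values rest on H4K8ac replicate 2, the less significant list. As means over the single lists of a target, a looser measure than both lists, H4K8ac-only regions stood at 11.6% on H3K27ac and 0.264% on H3K4me3. On that looser measure, H4K8ac-only peaks in the single-library pairs without replicate 2 stood at 12.7% and 12.8% on H3K27ac. On H3K4me3 they stood at 1.13% and 1.18%.

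Distances showed the same separation and a further one at H3K27me3. The median distance to the nearest H3K4me3 peak was 8528 and 7783 bp (H3K4me3 replicates 1 and 2) for H4K5ac-only regions and 29728 and 29432 bp for H4K8ac-only regions. To H3K36me3 it was 9867 and 11017 bp against 35756 and 35660 bp. H4K8ac-only regions thus lay farther from gene-body marking, although 11.1% of them overlapped it, against 13.6% of H4K5ac-only regions. These overlaps were near those of regions shared with both lists of the other mark, at 10.8% for H4K8ac and 13.8% for H4K5ac. To H3K27me3, the Polycomb mark, the order was reversed, with 70362 and 63170 bp for H4K5ac-only against 25602 and 25035 bp for H4K8ac-only regions. Regions of H4K5ac shared with both H4K8ac lists were at 50589 and 48281 bp, and regions of H4K8ac shared with both H4K5ac lists at 54076 and 51718 bp. To H3K9me3 the classes were close, at 13189 and 11352 bp against 14055 and 12794 bp.

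Many single-mark regions lay close to a peak of the other mark. A peak of the other mark in either list lay within 1000 bp of 7519 H4K5ac-only regions (55.5%) and of 4582 H4K8ac-only regions (33.1%). Regions more than 5000 bp from any peak of the other mark numbered 2270 (16.8%) and 3744 (27.1%). On these isolated regions the contrast in H3 marks was still present, here as means over the single lists of a target. H3K4me3 lay on 32.1% of the isolated H4K5ac-only and 0.307% of the isolated H4K8ac-only regions, and H3K27ac on 65.7% and 8.15%. On the same measure H4K5ac-only regions, isolated or not, stood at 26.7% on H3K4me3 and 67.6% on H3K27ac. H4K8ac-only regions stood at 0.264% and 11.6%.

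The strongest regions of each class illustrate these values. Coordinates are 1-based on hg19, the build named in the submitters' processing notes. Annotation of that build was not used here, so no gene is named. Ranked by the lower −log10 q of its libraries, the leading H4K5ac-only region was chr18:3628849-3629507. Its fold enrichments were 6.70 and 6.55 and its −log10 q values 23.4 and 23.8 in replicates 1 and 2, and it lay on both H3K27ac and both H4K5acK8ac lists. H4K8ac peaks lay 239 and 199 bp away in the respective replicates, so peaks of both marks were called side by side here. The next, chr17:8076805-8077245, had folds of 6.18 and 7.51, lay on both H3K4me3 lists, and had H4K8ac peaks 153 and 73 bp away. At chr7:23372207-23374271 the folds were 6.87 and 7.65, and the nearest H4K8ac peaks were 10338 bp away in replicate 1 and 880 bp in replicate 2. At chr5:158603121-158605058 the folds were 8.24 and 8.76 and H4K8ac lay 1976 and 1436 bp away. Both of these regions lay on both lists of H3K4me1, H3K27ac, H3K36me3, H4K12ac and H4K5acK8ac and on no H3K4me3 list. The fifth, chr17:76183438-76184811, had folds of 7.49 and 8.40 and lay on both lists of H3K4me3, H3K4me1 and H3K27ac. H4K8ac peaks lay 338 and 314 bp from it. All 5 lay on both H3K27ac, both H4K12ac and both H4K5acK8ac lists.

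The leading H4K8ac-only regions were weaker and had few H3 marks. At chr9:38164106-38164865 the folds were 3.68 and 4.69 in H4K8ac replicates 1 and 2 and the −log10 q values 6.35 and 6.08. It lay on 1 of the H3K27ac lists and on both BRD2 lists, with the nearest H4K5ac peaks 2977 and 984 bp away. At chr7:83930-85116 the folds were 3.95 and 5.04, and no list of the 6 H3 marks met it. This region lay on 1 H4K5acK8ac list and 1 BRD2 list, with H4K5ac peaks 1033 and 1296 bp away. At chr11:69303126-69303792 they were 3.25 and 4.30, again with no H3 mark and with H4K5ac peaks 190 and 147 bp away. The region chr16:70671976-70672402 had folds of 4.37 and 5.26, no H3 mark, and the nearest H4K5ac peaks 15473 and 14570 bp away. The fifth, chr10:73801238-73801822, had folds of 4.14 and 5.26 and lay on 1 H3K4me1 list and 1 H4K5acK8ac list. The nearest H4K5ac peaks were 395 and 1411 bp from it. None of the 5 lay on H3K4me3, whose nearest peaks were 15490 to 61782 bp away, and each lay on 1 of the 2 H4K12ac lists.

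For comparison, the strongest regions called in all 4 lists were promoter-type. At chr1:115123561-115126000 the H4K5ac folds were 24.7 and 27.1 and the H4K8ac folds 12.1 and 12.4. At chr1:153535852-153542617, a region of 6766 bp, they were 27.3 and 25.5 for H4K5ac and 13.7 and 10.6 for H4K8ac. At chr20:57265786-57269876 they were 26.2 and 29.3, and 15.3 and 12.9. The other two were chr1:36551413-36555631 and chr1:158117970-158120667. All 5 lay on both lists of H3K4me3, H3K4me1, H3K27ac, H4K12ac, H4K5acK8ac and BRD2, none of which held for any leading H4K8ac-only region except BRD2 at the first. The fifth also lay on both H3K9me3 and both H3K27me3 lists, the second on both H3K36me3 lists and the third on 1 of them.

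Where peaks were shared, their summits lay close together. Shared peaks were picked for sharing at least 1 bp and had median widths of 325 to 647 bp. Close summits therefore follow largely from that choice, and the values are given for description. The median distance from the summit of a shared H4K5ac peak to the nearest summit of H4K8ac was 115 or 116 bp in the 4 pairs, and 69.0% to 70.9% lay within 200 bp. The bases called for both marks made up 50.2% of the bases of H4K5ac replicate 1 and 38.03% of those of H4K8ac replicate 1. With H4K8ac replicate 2 they made up 28.0% of the H4K5ac bases and 51.2% of the H4K8ac bases. Bases common to both lists divided by bases in either gave 0.221 to 0.279 over the pairs.

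Single-mark peaks of H4K5ac and H4K8ac were spread differently over the chromosomes, by more than H4K5ac replicates differed and by little more than H4K8ac replicates did. The measure is the percentage of peaks that would have to change chromosome to make the distributions equal. Between H4K5ac-only and H4K8ac-only peaks it was 9.87 and 13.95 for H4K5ac replicate 1 and 8.37 and 10.8 for replicate 2, with a mean of 10.7. Between replicates it was 3.04 and 2.78 for H4K5ac-only peaks and 8.58 and 8.69 for H4K8ac-only peaks, so that the lowest pair lay below the H4K8ac replicates' own difference. Between all H4K5ac and all H4K8ac peaks it was 3.53 to 8.43. In 15 of 23 chromosomes the difference had the same sign in all 4 pairs.

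The chromosomes whose share of H4K5ac-only peaks most exceeded that of H4K8ac-only peaks were 19, X and 8, and those with the largest opposite difference were 2, 20 and 7, each in the same direction in all 4 pairs. Chromosome 19 held 4.39% of H4K5ac-only and 2.36% of H4K8ac-only peaks, with H4K8ac-only values from 1.70% to 3.05%. Over all peaks it held 4.67% and 4.55% in the H4K5ac lists and 3.79% and 3.12% in the H4K8ac lists, so both single-mark shares were under those of their own lists. The X chromosome held 1.98% and 0.999%, with all peaks at 1.65% in each H4K5ac list and at 1.21% and 0.964% in the H4K8ac lists. Chromosome 8 held 4.29% and 3.40%, with all peaks at 4.01% and 3.87%, and at 3.46% and 3.57%. Chromosome 2 held 8.997% of H4K5ac-only and 12.4% of H4K8ac-only peaks, the latter from 10.9% to 13.8%. Over all peaks it held 9.22% and 9.79% in the H4K5ac lists and 10.5% and 11.98% in the H4K8ac lists. Chromosome 20 held 2.97% and 4.38%. All H4K5ac peaks stood there at 3.93% and 4.05% and all H4K8ac peaks at 4.77% and 4.67%, so that H4K8ac-only peaks were under their own mark and H4K5ac-only peaks further under theirs. Chromosome 7 held 5.73% and 7.13%, with all peaks at 5.62% and 6.01%, and at 6.18% and 6.93%. In regions called in both replicates the contrasts were larger. Chromosome 2 held 1029 H4K5ac-only and 2054 H4K8ac-only regions, chromosome 20 held 342 and 798, chromosome 19 held 715 and 239, and X held 397 and 89. The measure of distance was 22.6 for these regions. The spread of all replicated regions of each mark over the chromosomes was not computed. The larger contrasts are therefore not shown to be particular to the single-mark regions. Chromosome copy number in this cell line was not analysed here, and its part in these shares was not tested.

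**Figure D5:**
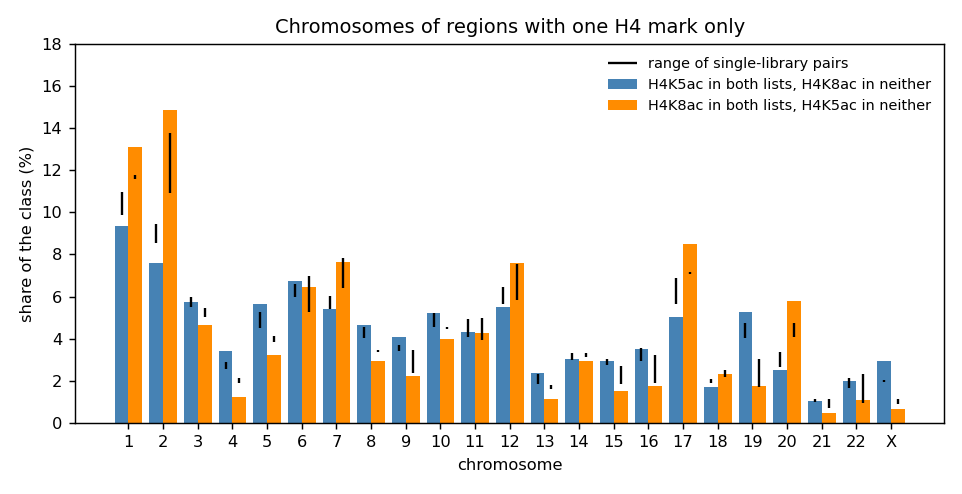
Percent of single-mark regions on each chromosome (y axis, bars; regions called in both replicates of one mark and in neither list of the other), blue for H4K5ac and orange for H4K8ac. Black lines give the range of the same share for single-library peaks over the 4 pairs. Shares of all replicated regions per chromosome were not computed. Chromosome 2 (7.60% and 14.8%) and chromosome 20 (2.53% and 5.77%) lean to H4K8ac, and chromosome 19 (5.28% and 1.73%) and X (2.93% and 0.643%) to H4K5ac.

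In bins of 1 Mb taken over all chromosomes, the richest bins held similar shares of single-mark regions and of all regions of their mark. The 100 bins of 1 Mb richest in H4K5ac-only regions held 18.3% of them, and the 100 richest in all H4K5ac regions held 19.03% of those. For H4K8ac these shares were 24.6% and 24.3%. The single-mark sets are smaller, and small counts per bin alone raise the share in the richest bins. These shares therefore do not show that both sets were equally uneven. The richest bin for H4K8ac was chr11:70000001-71000000 with 59 H4K8ac-only and 0 H4K5ac-only regions, beside 47 H4K8ac regions that met both H4K5ac lists. Its neighbours chr11:69000001-70000000 and chr11:68000001-69000000 had 55 and 48 H4K8ac-only regions against 1 and 4, beside 112 and 69 met by both H4K5ac lists. Next came chr20:55000001-56000000 with 53 against 10, beside 127 met by both, and chr2:121000001-122000000 with 51 against 5, beside 28. For H4K5ac the richest were chr5:58000001-59000000 with 57 H4K5ac-only against 3 H4K8ac-only regions, chr7:80000001-81000000 with 49 against 5, and chr1:8000001-9000000 with 48 against 4. The H4K5ac regions there that met both H4K8ac lists numbered 28, 15 and 94. These bins were picked for their counts, which are a description without a test.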

How the data were processed

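Peak lists of 22 immunoprecipitates were used as deposited, 1 per library, in the 10-column narrowPeak layout. Per the submitters' processing notes, reads were handled with BWA, MACS2 and the build hg19. Versions, settings and the control are not given in the sources used here. Positions are those of the deposited lists. In the deposited lists, the fold enrichment was made by the authors as a ratio of the peak to its local background. The authors' peak caller also gave a −log10 p and a −log10 q for each peak, and the deposited files hold both. The score deposited by the authors for each peak was not used. These values served to describe, filter and rank peaks inside a list. In the H4 lists −log10 p began at 2.00 to 2.01, so weak peaks are included. Depth is not in the lists, and list length moves with depth and affects overlap.

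Overlap means at least 1 bp. Shares were computed for the 4 pairs of H4 libraries and both lists of each further target, and are given as means with the SD between libraries of a mark. A peak list has no replicate test at 2 libraries per mark. Named regions are the 5 per class with the highest lower −log10 q, and named chromosomes are the 3 with the largest excess per mark. Members, classes and lists were chosen with earlier results of these data known. Alternatives covered overlap, strength, list length, replication and left-out libraries. Lists limited to 116852 peaks were added after seeing the data. Overlap code was tested on simulated intervals. Python 3.11.15, numpy 2.4.6, scipy 1.17.1, pandas 2.3.3 and matplotlib 3.10.9 were used.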

Additional observations from a re-analysis of the deposited data

How the results depend on the processing

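Of 97 recomputed values, 78 moved by less than the spread between libraries and 19 moved by more, and none of the latter changed sign on a called difference. With 2 libraries per mark that spread nearly fixes the verdict when a library is left out, so all 40 such values staying within it says little. Left-out libraries gave ranges of 44.0% to 64.7% for H4K5ac-only peaks, 52.2% to 65.1% for H4K8ac-only peaks, 0.782 to 0.925 for the width ratio and 9.12 to 12.4 for the chromosome measure. For the differences on H3K4me3, H3K4me1 and H3K27ac the ranges were −19.4 to −13.3, −35.5 to −33.7 and −37.4 to −32.0 percentage points.

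The H4K5ac-only share was 69.5% when at least 50% of the peak had to be covered, 28.4% for strong peaks against all peaks of the other mark, and 21.2% for regions called in both replicates. With strong peaks in both lists it was 68.0% (49.4% and 50.3% against H4K8ac replicate 1, 85.9% and 86.3% against replicate 2). The H4K8ac-only share was 23.5% with strong peaks in both lists (40.2% and 39.1% in replicate 1, 7.30% and 7.20% in replicate 2), 12.6% with strong peaks in the list counted (22.1% and 21.9%, 3.11% and 3.19%), 30.5% for the 10000 strongest peaks and 24.3% for replicated regions. The width ratio of the 10000 strongest was 0.457. For strong peaks the differences, H4K8ac-only minus H4K5ac-only, were −42.2 (H3K4me3), −49.8 (H3K4me1), −63.1 (H3K27ac), 2.27 (H3K9me3) and 3.57 (H3K27me3) percentage points. The last 2 rest on 213 and 218 peaks of H4K8ac replicate 2: with replicate 1 they were −3.83 and −3.48, and 0.301 and 0.262. For replicated regions they were −26.4, −53.6 and −56.0 on the first 3 marks, and at the summit −30.6 on H3K4me1. The chromosome measure was 24.1 for strong peaks and 22.6 for replicated regions. The causes were not tested. At the cut of the 10000 strongest, 207 peaks of H4K8ac replicate 2 share the −log10 q value of 4.25, and ties were broken by fold enrichment.

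Replicate numbers do not pair the libraries of the marks as far as the labels say, and the deviations of same-numbered libraries correlated at 0.0734 over bins of 100000 bp. A replicate block, with same-numbered libraries only, gave 54.5% and 58.6% for the single-mark shares, 0.857 for the width ratio, 10.3 for the chromosome measure, and −16.4, −34.5, −34.7, 0.311, −0.782 and 0.291 percentage points for H3K4me3, H3K4me1, H3K27ac, H3K36me3, H3K9me3 and H3K27me3.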

Other observations

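Some strong H4K8ac-only peaks lay beside the longest stretch without any peak on their chromosome. Of the 142 strong peaks of H4K8ac replicate 2 that met neither H4K5ac list, 10 (7.04%) lay within 1 Mb of such a stretch, against 0.599% to 1.01% of the strong single-mark peaks of the other 3 H4 lists. Over all peaks of H4K8ac replicate 2 the share was 0.766%. It was not computed over all strong peaks of that list, so it is not shown to be particular to those without H4K5ac. The strongest of the 10 was chr6:58774380-58774712, with a fold enrichment of 3.41 and a −log10 q of 21.4, at 4.80 kb from the stretch. It is also the only peak of that library with a −log10 q of at least 20 that lacked H4K5ac. The next, chr10:42396705-42397067, had a fold of 2.75 and a −log10 q of 12.7. The median fold of the 10 peaks was 2.76, against 4.91 over all 142, so their significance was high at a low enrichment. These peaks were noticed after their values were seen, and what produced them was not tested.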
